A study of Schizosaccharomyces pombe with 4 samples.

Results

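A group of 67 genes was chosen for a fall in S. pombe fas S.j. relative to wild type at 30°C, with a smaller fall, no change or a rise at 24°C. These genes were selected on the RNA-seq values of both temperatures. Members had a mean level of at least 10 FPKM at each temperature, a change of -0.5 or lower at 30°C and a change of -0.25 or higher at 24°C. FPKM is a fragment number corrected for transcript length and for library size. A change is the log2 ratio of FPKM + 1, fas S.j. over wild type, a scale that understates the changes of low genes. The members are 67 of 5143 genes in the 24°C table and of 285 in the 30°C table.

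The 4 libraries held poly(A) RNA from exponential cultures in the rich medium YES, 1 each for wild type at 24°C, fas S.j. at 24°C, wild type at 30°C and fas S.j. at 30°C. In fas S.j. the fas1 and fas2 open reading frames, which encode the subunits of the cytosolic fatty acid synthase, were replaced by those of S. japonicus. The labels name no other allele, and they do not say how many clones of the mutant were grown. In the paper's strain list, fas S.j. strains also carry the kanR and hygR markers at the replaced genes. The prototrophic fas S.j. strain there is h+, and the prototrophic wild type is h-. The paper's RNA methods do not name the strains used. With 1 library per condition no difference had a replicate check, no test between conditions was possible, and differences between cultures and between strains cannot be told apart. As a check of the labels, the S. pombe fas1 level was 301 FPKM (24°C) and 344 FPKM (30°C) in wild type, against 7.35 and 16.6 FPKM in the mutant. For fas2 the levels were 336 and 347 FPKM in wild type against 0.320 and 0.832 FPKM in fas S.j.

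The 2 tables differed in scope. The 30°C table holds falls alone, with a highest log2 ratio of -0.50 before any pseudocount. Of its 285 genes, 222 had a mean of at least 10 FPKM at both temperatures, and 208 of these, or 93.7%, passed the 30°C limit. The members are 67 of the 208, or 32.2%, and the remaining 141 genes are called the other falls. At 24°C the table covered the genome, and 85.9% of its 4543 genes with a mean of at least 10 FPKM lay at -0.25 or higher. Neither share is a result, because both limits belong to the selection. The median of all genes at 30°C could not be computed, so an offset of the whole 30°C comparison was not tested.

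Some of these genes encode parts of a few well-known systems, but 46 of the 67 members lie outside the lists used here for them. Core histones H2A, H2B, H3 and H4 package DNA into nucleosomes, and in fission yeast their mRNAs accumulate around S phase, when new chromatin is assembled. Subunits of the respiratory chain and the ATP synthase sit in the inner mitochondrial membrane and convert the energy of NADH into ATP. Cytosolic ribosomal proteins are encoded by highly transcribed genes whose mRNA output follows growth. Fatty acid synthase, the enzyme replaced in fas S.j., builds the acyl chains of membrane lipids, and its genes fas1 and fas2 are not members.

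Among the members, 6 encode core histones, 6 belong to the respiratory chain list, 3 to the ATP synthase list and 6 to the cytosolic ribosome list. The other 46 are spread over mitochondrial import and assembly, glycerol metabolism, ion transport, RNA synthesis and processing, and genes without a known role. Over all 4543 genes 1.47% were members, a share at which lists of up to 62 genes hold under 1 member. No listed gene was a member in the lists of ER and secretion (62 genes), proteasome (42), TCA cycle (15), cell wall (47), translation factors (58) or non-coding RNA (10). The TCA cycle list, a fixed set of gene names, leaves out the member emi5, annotated as a succinate dehydrogenase subunit. The larger lists without a member were lipid and sterol (117), protein kinases and phosphatases (126) and splicing (83), and keywords missed related members such as alg14 and stp1. As set by the selection, the median mutant level was 91.6% of the wild-type level at 24°C and 65.7% at 30°C. At 30°C the changes ranged from -2.05 to -0.50 with a median of -0.60. At 24°C they ranged from -0.25 to 0.87 with a median of -0.13, where the median of all 4543 genes was -0.01.

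**Figure D1:**
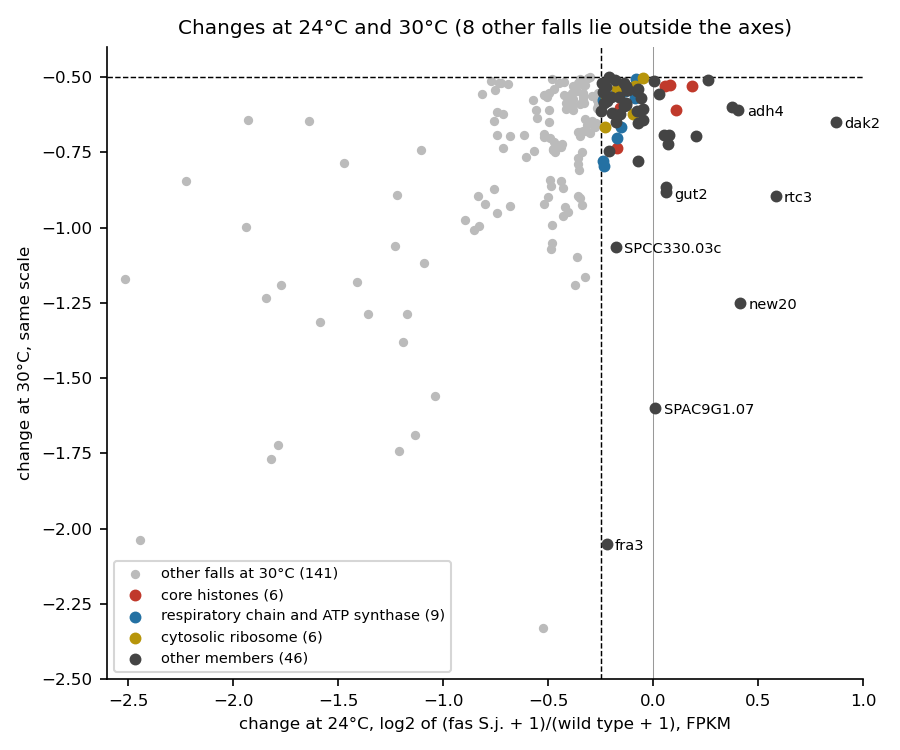
Change at 24°C (x axis) against change at 30°C (y axis), each the log2 ratio of FPKM + 1 (fas S.j. over wild type), for the 67 members (coloured by list) and the 141 other falls (grey). Dashed lines mark the limits of -0.25 and -0.5 that chose the members. Most members lie close to the corner of both limits, and fra3, SPAC9G1.07, new20, rtc3 and dak2 lie away from it; 8 other falls lie outside the axes.

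The falls were mostly modest. At 30°C 35 of the 67 members lay between -0.6 and -0.5, and 4 members (5.97%) lay at -1 or lower, against 34 of the 222 genes (15.3%). At 24°C 35 members lay below -0.1, 13 between -0.1 and 0, and 19 above 0. Of the last, 6 were above 0.25. The 19 are 28.4% of the members, while 47.9% of the 4543 genes lay above 0 at 24°C. In all, 48 of the 67 members were lower in fas S.j. at both temperatures, and the limits decided which genes entered.

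The genes at the limits show how narrow the borders are. On the 24°C side, stp1, apq12, cox12, rpc31 and atp2 were just inside with changes from -0.25 to -0.24, whereas ubp11, tif313, pop23, sak1 and sua5 were just outside at -0.26 or -0.27. On the 30°C side, psg2, rpl3201, atp7, cox10 and ssa1 were inside with changes from -0.51 to -0.50. SPAC4G8.08, spp27, cgs2, cwf18 and pop7 missed that limit at -0.50 to -0.49. The lowest mean levels inside belonged to dak2 (10.4 FPKM at 30°C), SPBC56F2.05c (11.8 FPKM at 24°C), SPCC330.03c (13.4 FPKM at 30°C), ceg1 (13.7 FPKM at 24°C) and tco89 (14.7 FPKM at 30°C). SPCC1919.07, SPAC977.15, jmj4, arp42 and mfs2 met both change limits but not the level limit. Their lower mean was between 7.83 and 9.70 FPKM, and arp42 was below 10 FPKM at both temperatures.

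Of the 9 core histone genes of S. pombe 6 were members, and they are described first because they share a promoter sequence that the selection did not use. The genes hht1 and hhf1, and likewise hht3 and hhf3, are divergent pairs that encode H3 and H4 and share the DNA between their starts. The pair hht2 and hhf2 has the same arrangement, hta1 (H2A) faces htb1 (H2B), and hta2 (H2A) stands alone. Each of these 5 regions held the letters AACCCT, the core of the element long known from fission yeast histone genes, as a direct repeat of 2 copies. The regions are given from RefSeq ASM294v3 in the direction of the strand named, with both copies in capitals, written AGGGTT where the repeat lies on the opposite strand. The hta2 region is the stretch of 250 bases before its annotated start.
hhf1 and hht1 (chrI:4699600-4699731, plus strand): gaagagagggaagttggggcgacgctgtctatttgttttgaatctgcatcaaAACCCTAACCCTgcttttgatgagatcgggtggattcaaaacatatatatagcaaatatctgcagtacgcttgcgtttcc
hht3 and hhf3 (chrII:3529566-3529766, plus strand): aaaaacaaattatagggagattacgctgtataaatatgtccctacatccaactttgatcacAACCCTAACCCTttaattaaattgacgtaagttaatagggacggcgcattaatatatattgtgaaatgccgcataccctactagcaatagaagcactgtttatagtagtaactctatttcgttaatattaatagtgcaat
hhf2 and hht2 (chrII:1364985-1365118, plus strand): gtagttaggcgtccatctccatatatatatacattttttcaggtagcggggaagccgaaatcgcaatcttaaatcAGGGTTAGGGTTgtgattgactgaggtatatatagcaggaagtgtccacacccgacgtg
hta1 and htb1 (chrIII:1412182-1412358, plus strand): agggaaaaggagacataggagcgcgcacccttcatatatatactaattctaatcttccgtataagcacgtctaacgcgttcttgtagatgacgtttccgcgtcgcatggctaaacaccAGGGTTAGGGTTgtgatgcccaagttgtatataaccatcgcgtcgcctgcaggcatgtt
hta2 (chrI:4053319-4053568, minus strand): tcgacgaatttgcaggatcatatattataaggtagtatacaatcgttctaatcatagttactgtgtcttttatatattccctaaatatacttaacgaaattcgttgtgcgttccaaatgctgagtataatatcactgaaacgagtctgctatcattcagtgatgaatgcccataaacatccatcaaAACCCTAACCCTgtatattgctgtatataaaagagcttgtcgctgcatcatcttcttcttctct

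In every one of these regions the 2 copies began exactly 6 bases apart. AACCCT on either strand was found in the promoters (250 bases before to 50 bases after the annotated start) of 15 of 67 members (22.4%), 13 of 140 other falls with a promoter (9.29%) and 494 of all 5077 promoters (9.73%). Without the 6 histone genes the share of members was 14.8%. The exact tandem, a pattern searched for after these sequences were seen, occurred in 20 of 5077 promoters (0.394%). Those 20 comprised all 9 core histone genes and 11 others, among them hsp90, ssa2, spi1 and tif51. Of the 20, 7 were members, namely the 6 histones and ssa1, and 0 were among the other falls. A match is a string of letters, and binding of a factor was not measured.

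Both H3 genes among the members, hht1 and hht3, stood higher in the mutant at 24°C and lower at 30°C. For hht1 the levels were 464 FPKM in wild type and 528 FPKM in fas S.j. cells at 24°C, and 637 FPKM and 441 FPKM at 30°C. For hht3 they were 706 and 762 FPKM at 24°C, and 824 and 540 FPKM at 30°C. In both genes the wild type at 30°C had the highest listed level of the 4 libraries and fas S.j. at 30°C the lowest. The changes were 0.19 at 24°C and -0.53 at 30°C for hht1, and 0.11 and -0.61 for hht3.

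The H4 gene hhf1 measured 745 FPKM in wild type and 786 FPKM in fas S.j. cells at 24°C, and 794 and 551 FPKM at 30°C. Its divergent partner is hht1, and both changed in the same directions. The H4 gene hhf3 measured 727 and 645 FPKM at 24°C, and 758 and 455 FPKM at 30°C, with changes of -0.17 and -0.74. It was lower in fas S.j. at both temperatures, although its divergent partner hht3 was not, and the tables place both in 1 locus. Coding sequences of hhf1 and hhf3 are 93.3% identical, those of hht1 and hht3 92.7% identical, and reads shared between such copies may be split unevenly by the authors' counting, so the contrast between single copies is uncertain.

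The H2A genes, which had no copy of 90% identity or more, did not move in parallel at 24°C. For hta1 the levels were 588 FPKM in wild type and 527 FPKM in fas S.j. cells at 24°C, and 668 and 439 FPKM at 30°C. For hta2 they were 681 and 708 FPKM at 24°C, and 767 and 531 FPKM at 30°C. Again the fas S.j. culture at 30°C had the lowest level in both genes. The changes at 24°C were -0.16 and 0.06, and those at 30°C -0.60 and -0.53.

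Taking the 6 genes as a set, fas S.j. held a median of 105% of the wild-type level at 24°C (88.7% to 114%) and 67.5% at 30°C (60.0% to 69.3%). All 6 had a higher wild-type level and a lower fas S.j. level in the 30°C table than in the 24°C table. The 3 remaining core histone genes, htb1, hht2 and hhf2, were not in the 30°C table, so their values at 30°C were not analysed here. At 24°C they lay at 0.09, -0.02 and -0.00, with 1409 and 1501 FPKM for htb1 in wild type and fas S.j. In bulk RNA, fewer cells in S phase and less histone mRNA per cell cannot be told apart, and neither was tested.

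**Figure D2:**
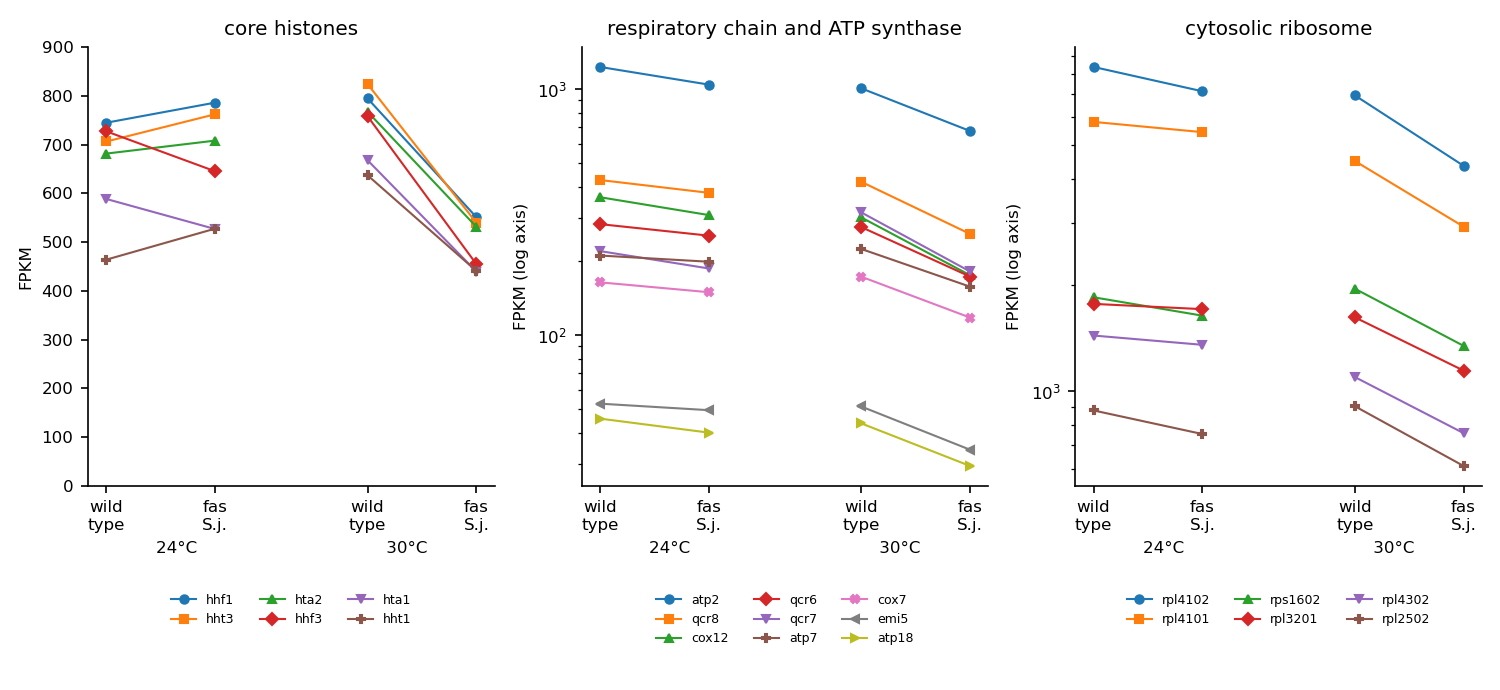
FPKM in the 4 libraries for the 6 core histone genes (linear axis from 0), the 9 respiratory chain and ATP synthase genes and the 6 cytosolic ribosomal protein genes (log axes); each line joins wild type and fas S.j. at one temperature, with no replicates. Histone lines run up or down at 24°C and all run down at 30°C, whereas lines of the other panels run down at both temperatures and more steeply at 30°C.

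A set of 9 members encodes subunits of the respiratory chain or the ATP synthase, and all 9 were slightly lower in fas S.j. at 24°C. From the respiratory chain list came qcr6, qcr7 and qcr8, subunits of the cytochrome bc1 complex, cox7 and cox12, subunits of cytochrome c oxidase, and emi5, annotated as a succinate dehydrogenase subunit. From the ATP synthase came atp2, the catalytic beta subunit, and the F0-sector subunits atp7 and atp18. Their changes ran from -0.24 to -0.08 at 24°C and from -0.79 to -0.51 at 30°C. The median mutant level was 88.7% of the wild-type level at 24°C and 66.8% at 30°C.

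The lowest 30°C changes of this set belonged to qcr7 and cox12. For qcr7 the levels were 219 FPKM in wild type and 187 FPKM in fas S.j. cells at 24°C, and 315 and 181 FPKM at 30°C. For cox12 they were 363 and 307 FPKM at 24°C, and 301 and 175 FPKM at 30°C. The 2 genes had nearly equal changes, -0.23 and -0.24 at 24°C and -0.79 and -0.78 at 30°C. They differed in the wild type, which was listed higher at 30°C for qcr7 and lower for cox12.

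The most abundant transcript of the set was atp2, with 1228 FPKM in wild type and 1041 FPKM in fas S.j. cells at 24°C, and 1006 and 675 FPKM at 30°C. The bc1 subunits qcr8 and qcr6 stood lower, at 427 and 378 FPKM and at 282 and 254 FPKM at 24°C. At 30°C they measured 420 and 258 FPKM and 275 and 173 FPKM. In all of these the wild type had about the same listed level at both temperatures or a lower one at 30°C, and fas S.j. at 30°C was the lowest of the 4 libraries. The same library was lowest for atp7 (157 FPKM), cox7 (118 FPKM), emi5 (34.3 FPKM) and atp18 (29.4 FPKM).

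These 9 genes are a slice of the keyword lists, whose counts do not describe the complexes. The lists take in assembly factors such as shy1 and fmc1 beside subunits. They miss qcr1, one of the other falls, with changes of -0.49 and -0.86. Of the 58 genes of both lists with a mean of at least 10 FPKM at 24°C, 25 fell at 30°C, and the 24°C limit put 9 among the members and 16 among the other falls. The latter include cox5, cyt1, qcr2, rip1 and nde1, with changes between -1.13 and -0.32 at 24°C and a median of -0.88 at 30°C. At 24°C the nearest of them, cox8 at -0.32, lay close to cox12 at -0.24. The 33 genes not among the falls had a median of -0.00 at 24°C. By list, 46.2% of respiratory chain genes and 36.8% of ATP synthase genes were falls, against 4.58% of all genes, and 15.4% and 15.8% were members, against 1.47% of all genes.

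Of the cytosolic ribosomal protein genes 6 were members, all of them lower in fas S.j. at both temperatures. They were rpl4101 and rpl4102 (L41), rpl2502, rpl3201, rpl4302 and rps1602. Each carried the heptamer CAGTCAC, known in S. pombe as the HomolD box of ribosomal protein promoters, on one strand of its promoter. The windows of 30 bases around it are given from RefSeq ASM294v3 in the direction of each gene, with the heptamer in capitals, written GTGACTG where it lies on the opposite strand.
rpl4102 (chrI:2853960-2853989, minus strand): gagccaaagaaaCAGTCACattttcgtata
rpl4101 (chrI:5402276-5402305, minus strand): ttcttaaaagagCAGTCACaatgtgctata
rpl2502 (chrII:2690745-2690774, plus strand): agggtaggtttaGTGACTGcctcaaatgtt
rps1602 (chrI:1711120-1711149, minus strand): gtcaacacaaacGTGACTGctttttttcgc
rpl4302 (chrII:1513788-1513817, minus strand): tattagtgaaaaCAGTCACggtaatccacc
rpl3201 (chrII:4351817-4351846, plus strand): aaagttttagagCAGTCACatagttcgttc

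The heptamer ended between 39 and 57 bases before the annotated starts. It was found in no other member, in 9 of 140 other falls (6.43%) and in 241 of all 5077 promoters (4.75%). It also stood in 130 of the 146 promoters of the cytosolic ribosome list, or 89.0%. Its presence in these 6 members is thus what the list as a whole shows. Of the 146 genes, 8 fell at 30°C, or 5.48% against 4.58% of all genes, a share near the background. Of these 6 were members, or 4.11% of the list against 1.47% of all genes, and the list as a whole had a median change of -0.10 at 24°C with 10.3% of its genes above 0.

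The highest listed levels of all members were those of the L41 genes, each with a coding sequence of 78 bases. For rpl4102 the levels were 8352 FPKM in wild type and 7120 FPKM in fas S.j. cells at 24°C, and 6936 and 4370 FPKM at 30°C. For rpl4101 they were 5826 and 5448 FPKM at 24°C, and 4511 and 2933 FPKM at 30°C. Both strains were listed lower at 30°C than at 24°C, and the fas S.j. library at 30°C was the lowest. The coding sequences of the pair are 90.9% identical. FPKM of such short transcripts depends strongly on the length correction, and this dependence was not tested.

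The other ribosomal members ranged in wild type at 24°C from 879 FPKM for rpl2502 to 1845 FPKM for rps1602. For rps1602 fas S.j. measured 1636 FPKM at 24°C, and the 30°C levels were 1953 and 1342 FPKM. For rpl3201 the levels were 1767 and 1707 FPKM at 24°C, and 1619 and 1141 FPKM at 30°C. Changes of the 6 genes ran from -0.23 to -0.05 at 24°C and from -0.67 to -0.50 at 30°C.

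The deepest falls of the whole group came from genes of little known function. At 30°C fra3 fell furthest, from 39.1 FPKM in wild type to 8.67 FPKM in fas S.j., or 22.2% of wild type. At 24°C it measured 58.0 and 49.6 FPKM. Its changes were -2.05 and -0.22, and the fas S.j. library at 30°C stood far below the other 3. Its locus in the authors' tables, a stretch of overlapping genes, holds 3 genes.

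The Schizosaccharomyces-specific gene SPAC9G1.07 was equal between strains at 24°C, with 28.5 FPKM in wild type and 28.7 FPKM in fas S.j. At 30°C it measured 42.1 and 13.2 FPKM, a change of -1.60. Again the fas S.j. library at 30°C was the lowest and the wild type at 30°C the highest. Its locus holds 4 genes.

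For new20 the order of the strains turned over, with 22.5 FPKM in wild type and 30.3 FPKM in fas S.j. cells at 24°C, and 44.7 and 18.2 FPKM at 30°C. The changes were 0.41 and -1.25, and new20 is alone in its locus. The gene rtc3, which encodes a protein of the SBDS family, showed the same order at a higher level. It measured 308 and 462 FPKM at 24°C, and 564 and 303 FPKM at 30°C, with changes of 0.58 and -0.89. Both genes are short, with coding sequences of 348 and 321 bases.

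Among the other members without a detailed role, rds1 measured 357 and 411 FPKM at 24°C, and 448 and 276 FPKM at 30°C. It was higher in fas S.j. at 24°C by 0.20 and lower at 30°C by a change of -0.70. The ankyrin-repeat gene dhm1 and psg2 lay near the limits, with changes of -0.22 and -0.21 at 24°C and -0.58 and -0.50 at 30°C.

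A set of 3 members concerns glycerol, a grouping made after their values were seen. They are gut2, the mitochondrial glycerol-3-phosphate dehydrogenase, dak2, a dihydroxyacetone kinase, and SPAC977.17, which encodes a protein of the MIP family of water and glycerol channels. None of the 3 had a change below 0 at 24°C, but the set was drawn from members alone. It leaves out dak1, the namesake of dak2 among the other falls. For dak1, wild type and fas S.j. measured 267 and 147 FPKM at 24°C, and 251 and 124 FPKM at 30°C. Its changes were -0.85 and -1.01, so the 24°C pattern of the 3 members does not extend to dak1. For gut2 the levels were 51.3 FPKM in wild type and 53.6 FPKM in fas S.j. cells at 24°C, and 93.0 and 49.96 FPKM at 30°C. Wild type at 30°C stood above the other 3 libraries, which were close to one another.

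For dak2 the levels were 8.16 and 15.7 FPKM at 24°C, and 12.9 and 7.87 FPKM at 30°C, and for SPAC977.17 they were 14.7 and 19.3 FPKM at 24°C, and 33.9 and 22.1 FPKM at 30°C. The 24°C change of dak2, 0.87, was the highest of the group. These 2 genes are neighbours on opposite strands whose annotated transcripts overlap by 454 bases, and the tables place them in 1 locus. The libraries were strand-specific, but whether strand was used in counting is not given in the sources used here, so their values may not be independent. Next to them lies SPAC977.15, which missed the mean level limit. It measured 1.83 and 44.4 FPKM at 24°C, and 13.9 and 5.44 FPKM at 30°C, the same order of strains with changes of 4.01 and -1.21.

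These neighbours lie close to an end of chromosome I, as does the member nhe1. Within 100 kb of an end of an assembled chromosome lay 4 members (nhe1, dak2, SPAC977.17 and dhm1), or 5.97%. The share was 4.29% of the other falls and 1.88% of all genes. The sodium/proton antiporter gene nhe1 measured 32.0 and 33.7 FPKM at 24°C, and 47.2 and 28.2 FPKM at 30°C. The zinc importer gene zrt1 measured 122 and 116 FPKM at 24°C, and 156 and 90.4 FPKM at 30°C. In both transporters the wild type was highest at 30°C and fas S.j. at 30°C lowest. With the mitochondrial NAD+ carrier yea6 they were the 3 members of the transporter list, in which 20 of 191 genes were falls. Members were 1.57% of that list against 1.47% of all genes, a share near the background, and falls were 10.5% against 4.58%.

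**Figure D3:**
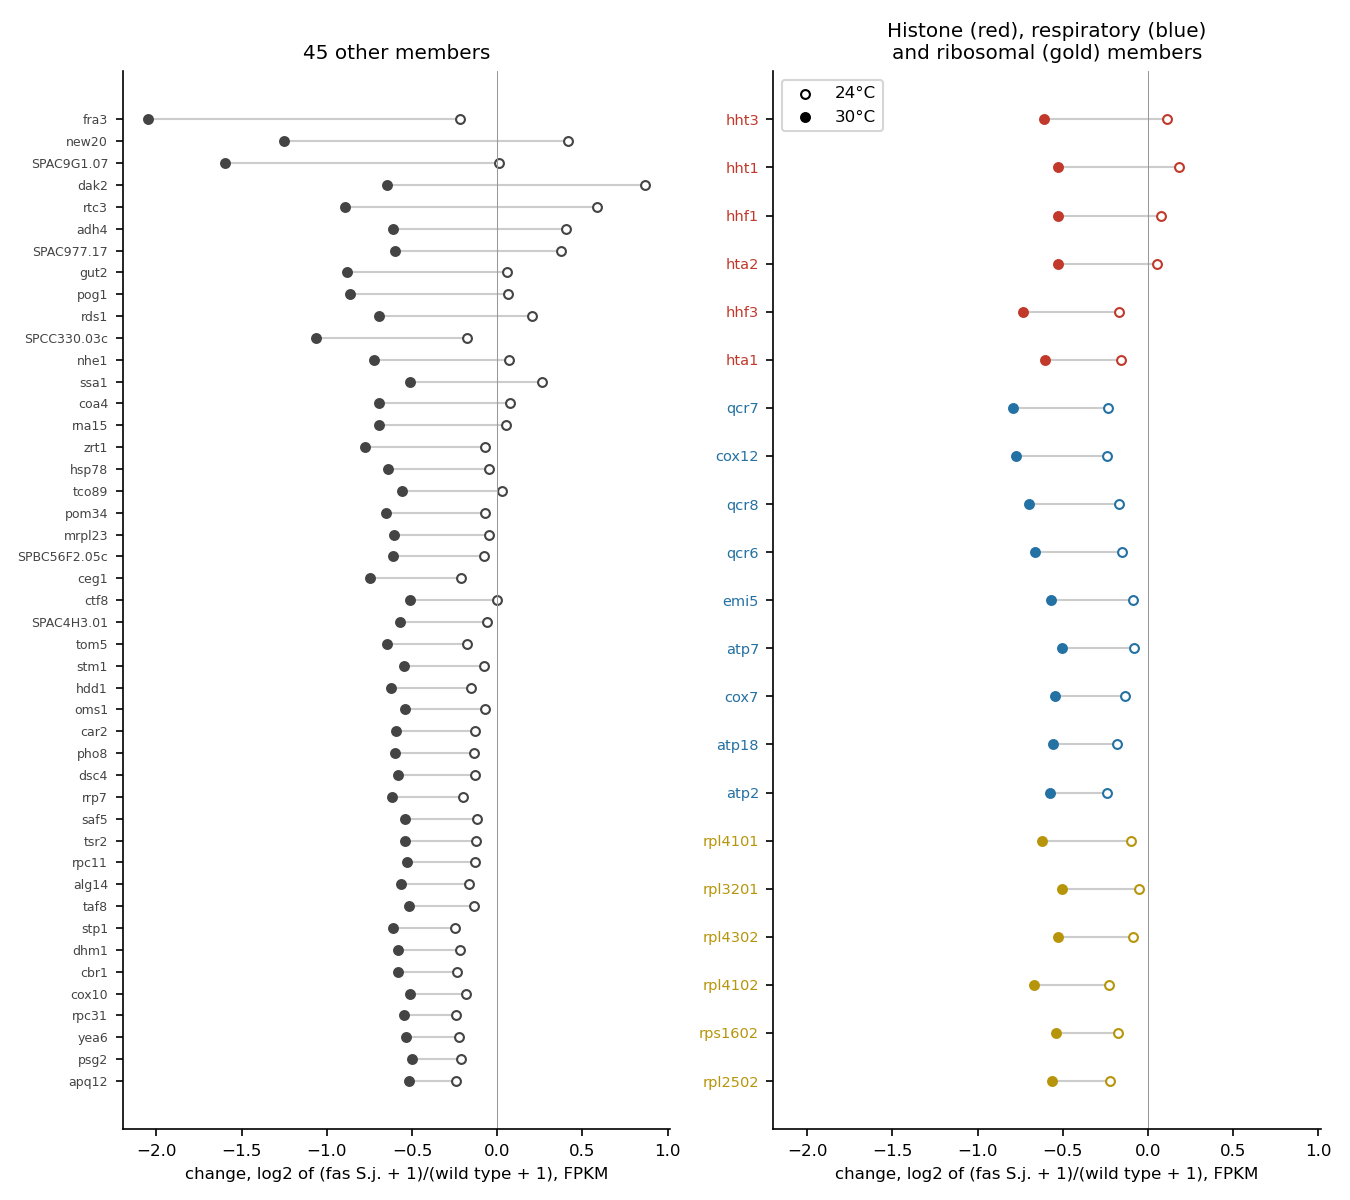
Change at 24°C (open circles) and 30°C (filled circles) of 66 members, given as the log2 ratio of FPKM + 1 (fas S.j. over wild type), with 45 members outside the main lists on the left and the histone, respiratory and ribosomal members on the right, ordered by the gap between the temperatures. Filled circles all lie at -0.5 or lower by selection, and 19 open circles lie above 0.

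A further 10 members act in or on mitochondria, counting gut2. They include coa4, a respiratory chain assembly factor, cox10, which makes a heme precursor for cytochrome oxidase, and tom5 of the outer membrane import complex. Others are hsp78, a disaggregase of the matrix, pog1, the mitochondrial DNA polymerase, mrpl23 of the mitochondrial ribosome, oms1, yea6 and adh4. Their changes at 30°C ran from -0.88 to -0.51, and 6 of 10 were below 0 at 24°C. This grouping was made by hand, and its share over all genes was not counted. The keyword list of other mitochondrial genes (25) held 0 members and 3 other falls, mef1, mti3 and ura3.

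For pog1 the levels were 28.1 and 29.4 FPKM at 24°C, and 78.5 and 42.7 FPKM at 30°C. For coa4 they were 115 and 121 FPKM at 24°C, and 222 and 137 FPKM at 30°C. In both genes wild type at 30°C was the highest library and fas S.j. at 30°C the second highest, so the wild-type rise between tables exceeded that of fas S.j. The alcohol dehydrogenase gene adh4 behaved otherwise, with 66.2 and 88.0 FPKM at 24°C, and 62.1 and 40.3 FPKM at 30°C, where the wild type was nearly equal in both tables and the strains changed order. The import gene tom5 measured 467 and 413 FPKM at 24°C, and 457 and 291 FPKM at 30°C.

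Of 74 mitochondrial ribosome genes 1 was a member (1.35%, against 1.47% of all genes) and 2 were falls (2.70%, against 4.58%). The member was mrpl23. It measured 79.3 and 76.6 FPKM at 24°C, and 99.4 and 65.0 FPKM at 30°C.

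Another 4 members serve ribosome biogenesis or RNA polymerase III, namely rrp7, tsr2, rpc31 and rpc11, and all were below 0 at both temperatures, with 30°C changes from -0.62 to -0.53. The ribosome biogenesis list (107 genes) held 2 members, rrp7 and tsr2, or 1.87% against 1.47% of all genes. Falls were 4.67% of it against 4.58%, so both shares were near the background. That list had a median change of -0.16 at 24°C with 15.9% of its genes above 0, and the 30°C sign was set by the selection. For RNA polymerase III the share over all genes was not counted. Another 6 encode nuclear or RNA-binding proteins. These 6 were grouped by hand, and their share over all genes was not counted. They are ceg1, the mRNA capping guanylyltransferase, rna15, whose S. cerevisiae namesake acts in mRNA 3′ end processing, taf8 of TFIID, ctf8 of an alternative replication factor C, saf5 and the transcription factor gene SPBC56F2.05c. The lowest change at 30°C among these was that of ceg1, -0.75, with 14.7 and 12.6 FPKM at 24°C, and 27.7 and 16.1 FPKM at 30°C. For rna15 the levels were 33.4 and 34.6 FPKM at 24°C, and 53.1 and 32.5 FPKM at 30°C. The transcription factor list (106 genes) held 2 members, taf8 and SPBC56F2.05c, or 1.89% against 1.47% of all genes, a share near the background. Falls were 7.55% of that list against 4.58%.

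Another 6 encode membrane or secretory proteins, with 24°C changes from -0.24 to -0.07 and 30°C changes from -0.65 to -0.52. These 6 were grouped by hand, and their share over all genes was not counted. They are the nucleoporin gene pom34, apq12 of the nuclear membrane, dsc4 of the Dsc ubiquitin ligase needed to cleave sterol-regulated transcription factors, alg14 of N-glycan assembly, the receptor gene stm1 and the alkaline phosphatase gene pho8. For pom34 the levels were 97.5 and 92.7 FPKM at 24°C, and 139 and 88.3 FPKM at 30°C. It follows mrx11, one of the other falls, on chromosome I.

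Both cytochrome b5 reductase members, SPCC330.03c and cbr1, were lower in fas S.j. at both temperatures. For SPCC330.03c the levels were 32.2 and 28.3 FPKM at 24°C, and 18.4 and 8.29 FPKM at 30°C, a 30°C change of -1.06. For cbr1 they were 136 and 116 FPKM at 24°C, and 150 and 99.7 FPKM at 30°C. These 2 genes also stand in the redox list, where 23 of 194 genes were falls and 8 were members, qcr8, qcr6, qcr7, cbr1 and adh4 being the 5 most abundant. Falls were 11.9% of that list against 4.58% of all genes, and members were 4.12% against 1.47%. These shares are not separate from those of the respiratory chain list. Of the redox genes, the members qcr6, qcr7, qcr8 and emi5 and the other falls nde1, rip1, qcr2 and qcr10 are in both lists.

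The cytosolic Hsp70 gene ssa1 measured 129 and 154 FPKM at 24°C, and 127 and 88.7 FPKM at 30°C. Wild type was nearly equal in the 2 tables, and fas S.j. was the highest library at 24°C and the lowest at 30°C. The J-domain gene SPAC4H3.01, of a family that works with Hsp70, had changes of -0.06 and -0.57. Of 82 chaperone genes 2 were members (hsp78 and ssa1), and hsp104 was among the other falls. Members were 2.44% of that list against 1.47% of all genes, and falls were 3.66% against 4.58%.

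The remaining members were car2, hdd1, tco89 and stp1. For car2, the ornithine transaminase of arginine breakdown, the levels were 352 and 322 FPKM at 24°C, and 1712 and 1135 FPKM at 30°C. Both strains were far higher in the 30°C table, the largest such difference of any member. For hdd1, with a phosphohydrolase domain, the changes were -0.16 and -0.62, for the TORC1 subunit gene tco89 0.03 and -0.56, and for the tyrosine phosphatase gene stp1 -0.25 and -0.61.

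Levels in the 2 tables can be set side by side, although each table was scaled on its own. Wild type was listed higher at 30°C than at 24°C for 49 of 67 members, and fas S.j. lower for 53. Both held for 35 members (52.2%) and for 30 of 141 other falls (21.3%). A further 14 members were higher at 30°C in both strains and 18 lower in both. The median difference between tables, on the log2 scale, was 0.28 for wild type and -0.28 for the mutant among members, and 0.13 and -0.05 among the other falls. All 4 values entered the selection, which favours such opposite shifts, so these counts are a description.

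**Figure D4:**
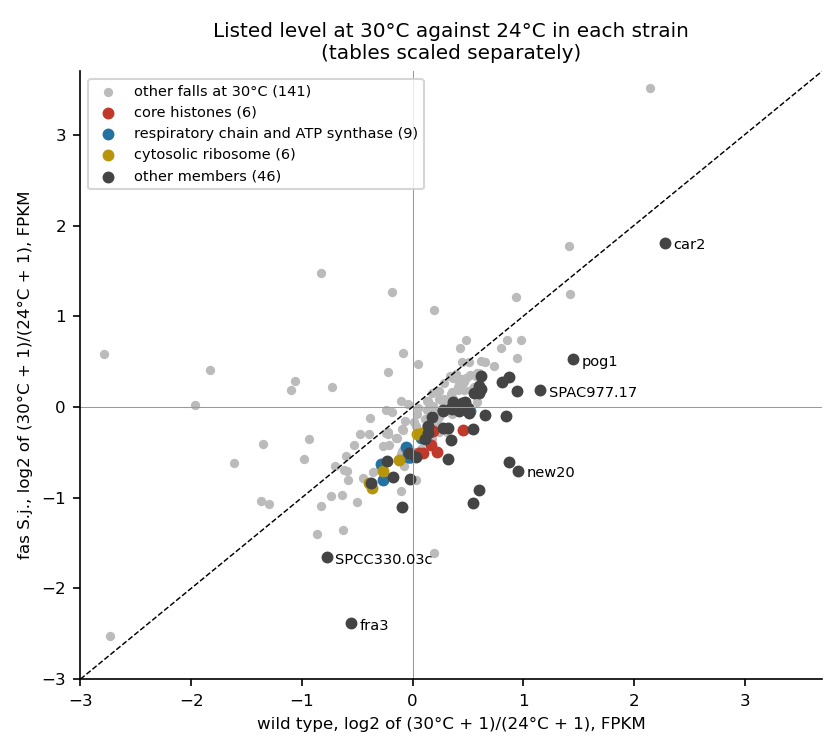
Log2 ratio of FPKM + 1 (30°C over 24°C), with wild type on the x axis and fas S.j. on the y axis, for members (coloured by list) and other falls (grey), with the 2 tables scaled separately. All members lie below the dashed line of equal shifts by selection, and the 6 histone members fall in the lower right, with higher wild-type and lower fas S.j. levels at 30°C.

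By list, wild type was listed higher at 30°C in 6 of 6 histone genes, 3 of 9 respiratory chain and ATP synthase genes and 2 of 6 ribosomal genes, and fas S.j. was lower in all 21. The median wild-type differences were 0.18, -0.04 and -0.20, beside 0.28 over all members. Among the histones they went down to 0.06 for hhf3 and 0.09 for hhf1, and the scaling of the tables against each other was not tested. The median fas S.j. differences were -0.46, -0.52 and -0.64.

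The members were shorter genes than the comparison sets. Their median coding length was 633 bases, against 1071 bases for the other falls and 1168.5 bases for all genes. A coding length of up to 450 bases was found in 27 members (40.3%), 17.9% of the other falls and 11.8% of all genes. All 6 histone members (312 to 411 bases) and all 6 ribosomal members (78 to 426 bases) were short, as were 5 of 6 respiratory chain members. Of the other 46 members 9 were short, with a median of 855 bases.

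Short genes were also more frequent among all falls. Of genes with a coding length of up to 450 bases 9.68% were among the 208 falls, against 3.89% of longer genes. Their median change at 24°C was 0.01, close to that of all genes. Fragment length and RNA quality can shift counts of short transcripts. These were not given for any library, and their part in the result was not tested.

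**Figure D5:**
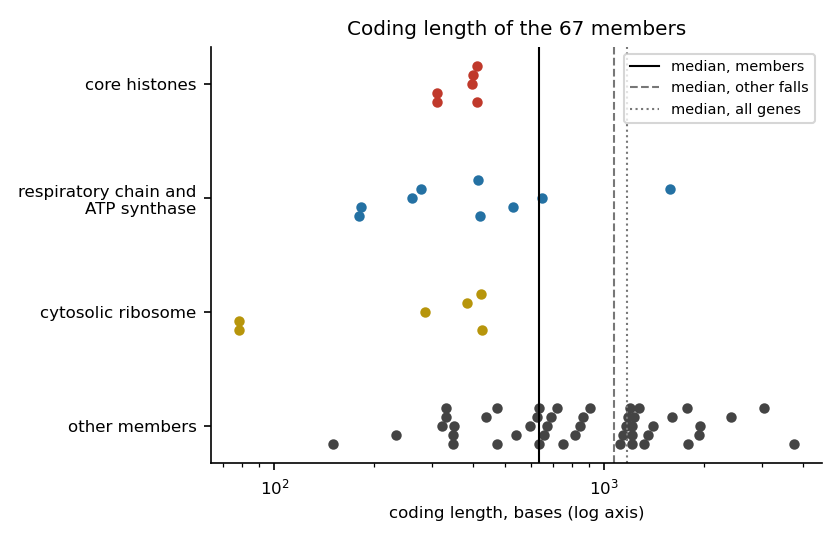
Coding length in bases (log axis) of each member, by list, with vertical lines at the medians of the members (633), the other falls (1071) and all genes with a mean of at least 10 FPKM at 24°C (1168.5). Histone and ribosomal members all lie left of the members' median, and the other members spread across the range.

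Other features were close to the background. Introns were present in 46.3% of members, 34.3% of other falls and 49.7% of all genes, and the median coding GC content was 41.8%, 41.1% and 39.9%. Members lay on chromosomes I, II and III in numbers of 28, 25 and 14, shares of 41.8%, 37.3% and 20.9% against 45.5%, 36.8% and 17.8% of all genes. Direct neighbours among the members were hhf1 and hht1, hht3 and hhf3, and dak2 and SPAC977.17. Of the members 32 (47.8%) were alone in their locus, against 46.3% of all genes.

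A further 9 motifs were searched in the promoters on both strands. ACGCGT, the letters bound by the G1/S factor MBF, stood in 8 members (11.9%), among them rpl4102, qcr6, pom34, hsp78, rpl4101, hta1 and pho8, against 2.14% of other falls and 3.27% of all promoters. TGACGT, the letters of the Atf1 site, stood in 9 members (13.4%), among them gut2, rds1, adh4, hht3, hhf3 and hta1, against 4.29% and 5.93%. CCAAT stood in 46.3% of members, 48.6% of other falls and 42.2% of all promoters, and GATAAG in 11.9%, 12.1% and 11.6%. For GTAAACA the shares were 13.4%, 14.3% and 16.5%, for GAANNTTC 8.96%, 8.57% and 11.1%, and for TTAGTAA 10.4%, 6.43% and 11.995%. For ACCCTAC, which can overlap AACCCT, they were 7.46%, 3.57% and 2.68%, and for CCAGCC 2.99%, 5.0% and 3.27%. Without the 6 histone members the shares of members were 9.84% for TGACGT, 4.92% for ACCCTAC and 11.5% for ACGCGT. Divergent genes share letters, so promoters are not independent, and no test was made.

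The precision at 24°C could be estimated for some members. Low FPKM values step in units of about 1 read, and the steps gave an approximate read number for the 19 members that are alone in their locus and have no intron. The lowest estimate in a 24°C library was 134 reads, and the median in wild type was 1716 reads. The matching counting error (SE) of the 24°C change had a median of 0.05 and ranged from 0.01 to 0.16. The highest was that of ceg1, whose change at 24°C was -0.21. For hht1 and hta2, with changes of 0.19 and 0.06, it was 0.03 in both. These errors cover counting alone and not the spread between cultures, and the depth at 30°C was not estimated.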

How the data were processed

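Poly(A) RNA of wild type and fas S.j. at 24°C and 30°C was sequenced as 1 library per condition. Mapping by the authors used TopHat, and Cuffdiff compared the strains, per the submitters' processing notes, with versions and genome build not given in the sources used here. The deposited FPKM values, 1 per gene and library, were scaled by the authors separately for each temperature. Columns with the authors' own comparison (log2 ratios, test statistics, p-values, q-values and calls, and 2 unnamed columns at 30°C) were not used. The paper and the sample labels name different sequencers and read lengths.

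Changes were computed with a pseudocount of 1, and genes with a mean below 10 FPKM were left out. The members, gene lists and motifs were chosen with earlier results of these data known. Most lists were keyword matches to RefSeq products, where 'mitochondrial' and 'ribosomal protein' together stood for the mitochondrial ribosome. The TCA cycle list and the list of glycolysis and fermentation were fixed sets of gene names, and non-coding RNA was matched by gene ID or gene type. Named genes were the 10 lowest changes at 30°C, the 10 largest gaps between temperatures, the 10 most abundant members, list members where a list held at least 3 (the 5 most abundant for redox), genes at the limits, and members named to account for the rest, of which 1 is counted but not reported here by name. Of 5143 IDs 5110 matched ASM294v3. Of 2349 genes alone in their locus, 98.5% had both ends within 1000 bases of the files' coordinates, and printed coordinates are those of ASM294v3. Copies were blastn 2.17.0 matches with 90% identity or more that covered 50% or more of a coding sequence. The selection code was run on simulated data with changes set away from the limits, which checks the code alone and not the members. Python 3.11.15, numpy 2.4.6, pandas 2.3.3 and matplotlib 3.10.9 were used. Alternatives were other pseudocounts, mean levels and limits, centring, and genes alone in their locus.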

Additional observations from a re-analysis of the deposited data

Results flagged for a closer look

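A set of 19 members stood above wild type in fas S.j. at 24°C and below it at 30°C. The size of each turn is the change at 24°C minus the change at 30°C, on the log2 scale. It was 1.66 for new20, 1.61 for SPAC9G1.07, 1.52 for dak2, 1.48 for rtc3 and 1.01 for adh4. It was 0.97 for SPAC977.17, 0.94 for gut2, 0.92 for pog1, 0.90 for rds1 and 0.79 for nhe1. It was 0.77 for ssa1, 0.77 for coa4, 0.74 for rna15, 0.72 for hht3 and 0.71 for hht1. It was 0.60 for hhf1, 0.58 for hta2, 0.58 for tco89 and 0.51 for ctf8. With 1 library per strain and temperature these differences were not tested. The selection favours such turns, and for SPAC9G1.07 and ctf8 the change at 24°C was 0.01 and 0.00.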

How the results depend on the processing

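The number of members was 67 and depended on the limits. It was 32 with a 24°C limit of -0.1, 114 with -0.4, 32 with a 30°C limit of -0.6 and 32 with genes alone in their locus. With a 24°C limit of -0.1 the median change at 24°C turned to 0.040, because genes below -0.1 were left out. The lists then held 1 ATP synthase, 1 respiratory chain, 3 cytosolic ribosome, 3 redox and 4 histone members. With a limit of -0.4 they held 7 ATP synthase, 11 respiratory chain and 6 transporter members. With a 30°C limit of -0.6 there were 0 ATP synthase, 2 cytosolic ribosome and 3 histone members. With genes alone in their locus there were 3 cytosolic ribosome, 4 redox, 3 respiratory chain and 4 histone members. Pseudocounts of 0.1 and none gave 72 and 73 members, of which 66 were shared in each case, minimum means of 1, 30 and none gave 82, 50 and 84, and centring the 24°C changes gave 68. No paired analysis was possible because each condition had 1 library. The lack of replicates and of a full 30°C table limits every value.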
